A study of Rattus norvegicus with 48 samples.

Results

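The livers described here came from male F344 rats fed 500 ppm phenobarbital (PB) for 7 days and were set against livers of rats fed the same diet without PB for 7 days. The group of an array was taken from its animal number, given in the sample description, and the study's list of animals. This gave 3 animals at 500 ppm (animals 55, 51 and 53) and 3 at 0 ppm (animals 11, 13 and 15), which are 6 of the 48 arrays of the series. The rats were 9 weeks old, were fed ad lib, and received the sodium salt of PB milled into the diet, with 5 animals in each group of the study and 3 of them on arrays. The series holds 16 groups, at 0, 50, 500 or 1000 ppm for 1, 3, 7 or 14 days, and the 50 ppm and 1000 ppm groups of day 7 (3 arrays each) are used here as further comparisons. RNA of the left lateral lobe was measured on 1-colour Affymetrix Rat Genome 230 version 2 arrays, with 1 array for each animal.

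PB is a barbiturate that raises drug metabolism in the liver. It acts on hepatocytes mainly through the nuclear receptor CAR (Nr1i3), which moves into the nucleus and, with its partner RXR, binds DNA next to genes of drug metabolism, a set that overlaps with that of the related receptor PXR (Nr1i2). The products work in sequence: cytochromes P450 and their electron donors oxidize a compound, esterases and epoxide hydrolase cleave it, transferases attach glucuronic acid or glutathione, and transporters move the conjugates out of the cell. In rat liver the Cyp2b genes are the best known of these targets, and PB also makes the liver larger.

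The labels of 1 of the 6 arrays go against its animal number. Animal 55 is labelled as a 50 ppm animal of day 7, while its number places it at 500 ppm. In the whole series 7 arrays have such a conflict, among them animals 31 and 35 of the 50 ppm group of day 7, whose labels give day 3 and day 14 at the same dose. The signals of animal 55 can be set against both doses at a probeset that carries the symbols Cyp2b2 and Cyp2b1. It read 54724 in animal 55 against 52171 and 56298 in animals 51 and 53, while the 50 ppm animals read 28616 to 31325. Counts are given below with animal 55 left out and with the labels followed. The arrays were also hybridized in 6 runs. Animals 51 and 53 were in run 1 and animal 55 in run 6, while animal 11 was in run 3 and animals 13 and 15 in run 4, so no run held both groups and no value could be had within a run.

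The deposited table lists a signal only for part of the probesets of each array. There were 14712, 13763 and 13479 listed probesets in animals 55, 51 and 53, against 16068, 14767 and 15914 in animals 11, 13 and 15. The 9 arrays of run 1 listed a median of 14232 probesets, and the medians of the other runs lay between 15239 and 15951.5. The median listed signal was 503.3 to 564.6 at 500 ppm and 439.6 to 488.7 at 0 ppm. Over 10151 probesets listed on all 48 arrays, pairs of arrays within a group had correlations of log2 signal of 0.979 to 0.985, and pairs between the groups 0.968 to 0.982. Signals are MAS 5.0 values scaled to an array mean of 500, so a level can be compared between animals for a probeset but not between probesets. The sources do not say why a value is absent, and such values were left missing.

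At 500 ppm PB the 4 probesets with the largest rises were those of Aldh1a1, Cyp2b2 and Cyp2b1, Ces2c and Ugt2b1. A probeset was called when its adjusted p was under 0.05 in limma. Of 13290 probesets tested, 465 (3.50%) were called, 271 (2.04%) of them higher and 194 (1.46%) lower at 500 ppm than at 0 ppm, and 2534 had an unadjusted p under 0.05. The called rises had a median log2 fold change of 0.68, and 62 of them were at least 2-fold. The called falls had a median of -0.49, and 9 were at least 2-fold. The median over all probesets tested was 0.006. The groups did not overlap, with all 6 values listed, at 1224 of 11439 probesets (10.7%) for higher and 1302 (11.4%) for lower.

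These counts depend on the scaling of the arrays, on the run and on single animals. After quantile normalization 120 probesets were higher and 1599 lower and the median of all probesets was -0.20, and with each array centred on the median of its listed signals 122 were higher and 2287 lower, with a median of -0.22. Centred on the probesets listed on all arrays, 362 were higher and 129 lower. With the run as a fixed block, which multiplied the variance of the comparison by 3.6, 12 probesets were called, 10 of them among the 465. Without animal 55 the count was 493, without animal 53 it was 149, without animal 51 275, without animal 11 184 and without animal 15 194. With the labels followed 129 were called, 112 of them among the 465. No direction changed at the 55 named probesets, 38 higher and 17 lower, under any of these settings. All 3 controls decide each value here. Set against the 9 control arrays of the other days, these differed at 0 of 13576 probesets by limma, and 973 had an unadjusted p under 0.05.

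The changes also varied with the brightness of a probeset. The 104 probesets with a mean signal over 30000 had a median log2 fold change of 0.34, with 12 called higher and 0 lower, and this median was -0.06 after quantile normalization, 0.04 with the run as a block, 0.24 against the 4 control arrays of runs 1 and 6, and 0.41 with animal 55 alone against the 3 controls, a single array whose spread is taken from the other groups. The median was 0.07 for signals of 10000 to 30000, -0.07 for 1000 to 3000, 0.13 for 100 to 300 and 0.32 up to 100, so it was highest at both ends of the range.

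**Figure D1:**
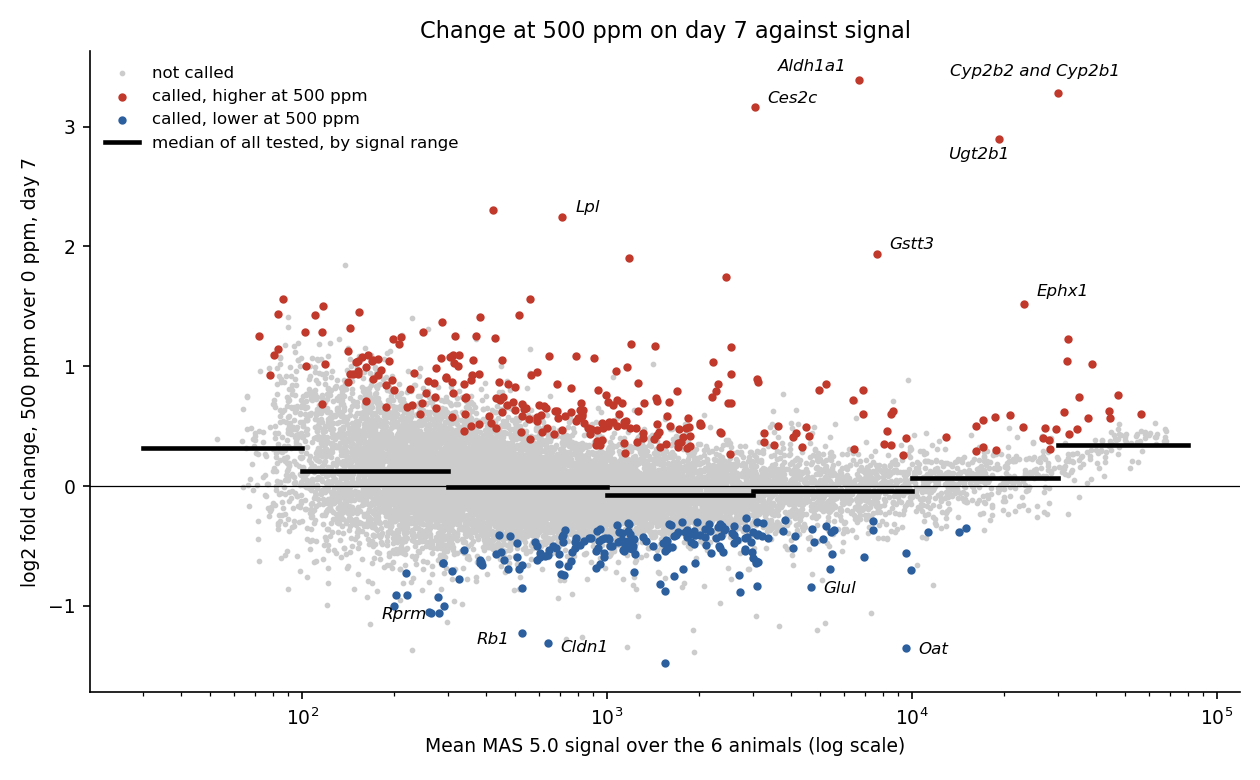
Each point is a probeset tested, with its mean MAS 5.0 signal over the 6 animals of day 7 on the x axis (log scale) and the log2 fold change of 500 ppm over 0 ppm on the y axis. Called rises are red and called falls blue, and black bars give the median of all tested in each signal range, which is 0.34 above a signal of 30000.

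The probeset of Cyp2b2 and Cyp2b1, the cytochromes P450 that define PB-type induction, read 54724, 52171 and 56298 in animals 55, 51 and 53, against 5657, 6024 and 5119 in animals 11, 13 and 15. It was 9.73-fold higher (log2 fold change 3.28 ± 0.14, adjusted p = 5.61e-19; errors of log2 fold changes are standard errors of the fit, with 3 animals in each group). Aldh1a1, which oxidizes retinal to retinoic acid, read 12588, 10200 and 13568 at 500 ppm and 635, 1138 and 2097 at 0 ppm, with a log2 fold change of 3.39 ± 0.34 (adjusted p = 2.11e-08). The 3 treated values lay close together, while the controls spread over a wide range.

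Ces2c, a carboxylesterase that cleaves ester and amide drugs, read 4815, 5220 and 6472 at 500 ppm and 507, 640 and 701 at 0 ppm (3.16 ± 0.21, adjusted p = 1.38e-13). Ugt2b1, which attaches glucuronic acid to steroids and drugs, read 33665, 32402 and 35836 at 500 ppm and 3389, 4783 and 5840 at 0 ppm (2.90 ± 0.15, adjusted p = 2.95e-16). Ephx1, the microsomal epoxide hydrolase that opens the reactive epoxides P450s make, read 34088, 30894 and 38431 at 500 ppm and 11606, 11933 and 12468 at 0 ppm (1.52 ± 0.11, adjusted p = 1.37e-12). In each of these genes every treated animal was well above every control, and the rule that chose them required that the groups not overlap. Gstt3, a theta class glutathione transferase, read 10424, 12542 and 13268 at 500 ppm and 4472, 2449 and 2820 at 0 ppm (1.94 ± 0.32, adjusted p = 0.000291).

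Lpl, also among the 12 genes with the largest rises, is the lipase that releases fatty acids from circulating triglyceride, and it read 1275, 1039 and 1197 at 500 ppm and 164, 363 and 248 at 0 ppm (2.25 ± 0.30, adjusted p = 9.99e-06). The 12 were ranked with each gene read from its brightest probeset that met the rule (called, at least 1.5-fold, no overlap), so fainter probesets of other genes, such as App and Vav2 below, could rise more. The other 6 of the 12 had signals of 1860 or less in every animal and rose by 1.19 to 1.41 on the log2 scale. They were Cyp4a8, of a family that hydroxylates fatty acids, Fndc5, the precursor of the secreted peptide irisin, Mnd1, a partner in the DNA strand exchange of meiosis, Meox2, a homeobox transcription factor, Casp4, an inflammatory caspase, and Sema3c, a secreted semaphorin. Casp4 had the smallest standard error of the 6, at 1712, 1860 and 1403 at 500 ppm and 820, 794 and 579 at 0 ppm (1.19 ± 0.16, adjusted p = 9.43e-06). App, the amyloid precursor protein, was chosen after its values were seen. Its 3 probesets rose by 0.85 ± 0.15, 1.74 ± 0.13 and 1.90 ± 0.25, and the second of them read 3722, 3241 and 4401 at 500 ppm and 1056, 1139 and 1179 at 0 ppm.

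Of the 465 probesets, 7 were also called with the run as a block and against the 4 control arrays that lay in runs 1 and 6 (days 1 and 14). These were the probesets of Aldh1a1, Cyp2b2 and Cyp2b1, Ces2c, Ugt2b1, Ephx1, App and Vav2. Vav2, likewise chosen after its values were seen, read 793, 757 and 707 at 500 ppm and 270, 260 and 312 at 0 ppm at this probeset, and its 4 probesets rose by 1.08 to 1.43.

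The stretch of DNA before the start of these genes is shown because CAR and PXR bind pairs of a nuclear receptor half-site, a common form of which is AGTTCA on one strand and TGAACT on the other. Of the 12 genes with the largest rises, 10 had a promoter in the RefSeq table (build GRCr8). Of these 10 genes, 3 held the half-site within 250 bases before the start, against 12.2% of 33469 promoters in the table. The first count is of genes and the second of promoters, and a gene, such as Ephx1, can have several promoters. The 3 sequences run 5′ to 3′ on the strand of the gene and end at the base before the start, with the half-site in capitals. They are Ces2c (chr1:270376951-270377200, plus strand), Ugt2b1 (chr14:21378632-21378881, plus strand) and Gstt3 (chr20:12874368-12874617, plus strand).
Ces2c: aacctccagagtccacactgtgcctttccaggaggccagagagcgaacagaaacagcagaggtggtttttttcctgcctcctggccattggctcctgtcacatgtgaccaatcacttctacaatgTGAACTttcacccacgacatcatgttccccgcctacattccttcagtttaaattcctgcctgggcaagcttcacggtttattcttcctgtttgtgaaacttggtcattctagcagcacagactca
Ugt2b1: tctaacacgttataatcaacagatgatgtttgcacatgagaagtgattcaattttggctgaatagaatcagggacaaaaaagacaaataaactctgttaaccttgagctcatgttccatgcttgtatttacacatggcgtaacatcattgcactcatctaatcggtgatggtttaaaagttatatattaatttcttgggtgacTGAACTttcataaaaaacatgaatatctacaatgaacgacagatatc
Gstt3: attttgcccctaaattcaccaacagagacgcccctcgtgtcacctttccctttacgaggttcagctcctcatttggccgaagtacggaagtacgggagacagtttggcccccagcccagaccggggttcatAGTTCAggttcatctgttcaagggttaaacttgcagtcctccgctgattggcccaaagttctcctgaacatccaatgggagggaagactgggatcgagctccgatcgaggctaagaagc
The half-site started 125 bases before the start of Ces2c, 47 before that of Ugt2b1 and 119 before that of Gstt3. Both strands were searched and no other motif was looked for. A match is a description of the letters and not of binding.

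The genes with the largest falls were of several kinds. Oat, the mitochondrial ornithine aminotransferase found in hepatocytes around the central vein, read 6481, 5884 and 3888 at 500 ppm and 10909, 15834 and 14293 at 0 ppm (-1.35 ± 0.27, adjusted p = 0.00258). Glul, glutamine synthetase of the same hepatocytes, read 3078, 3805 and 3154 at 500 ppm and 6336, 6501 and 5120 at 0 ppm (-0.84 ± 0.16, adjusted p = 0.00194), and its brighter probeset fell by 0.57 ± 0.15. The groups did not overlap in either gene, which the rule for choosing the 12 largest falls required. Ak4, a mitochondrial adenylate kinase, had the smallest error of the 12, at 2204, 2487 and 1994 against 3647, 3983 and 4256 (-0.83 ± 0.13, adjusted p = 7.74e-05).

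Cldn1, a tight junction protein, read 460, 446 and 234 at 500 ppm and 831, 900 and 971 at 0 ppm (-1.30 ± 0.29, adjusted p = 0.00707). Rb1, the retinoblastoma protein that holds cells before DNA synthesis, read 242, 402 and 312 at 500 ppm and 669, 789 and 737 at 0 ppm (-1.23 ± 0.26, adjusted p = 0.00573). Suds3, a subunit of the Sin3 histone deacetylase complex, read 1358, 1368 and 668 at 500 ppm and 2158, 1822 and 1949 at 0 ppm (-0.88 ± 0.16, adjusted p = 0.000844). Animal 53 was the lowest of the treated animals for Oat, Cldn1 and Suds3. The other 6 fell by 0.73 to 1.06. They were Rprm, a mediator of arrest in G2, Rnf144b and Fbxo33, which act in ubiquitin transfer, Atp1b1, the beta subunit of the sodium pump, Slc25a22, a mitochondrial glutamate carrier, and Nfkb1, the precursor of the p50 subunit of NF-kB. The call of Rprm was close to the threshold (adjusted p = 0.0483), with 202, 271 and 98.7 against 353, 460 and 302.

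**Figure D2:**
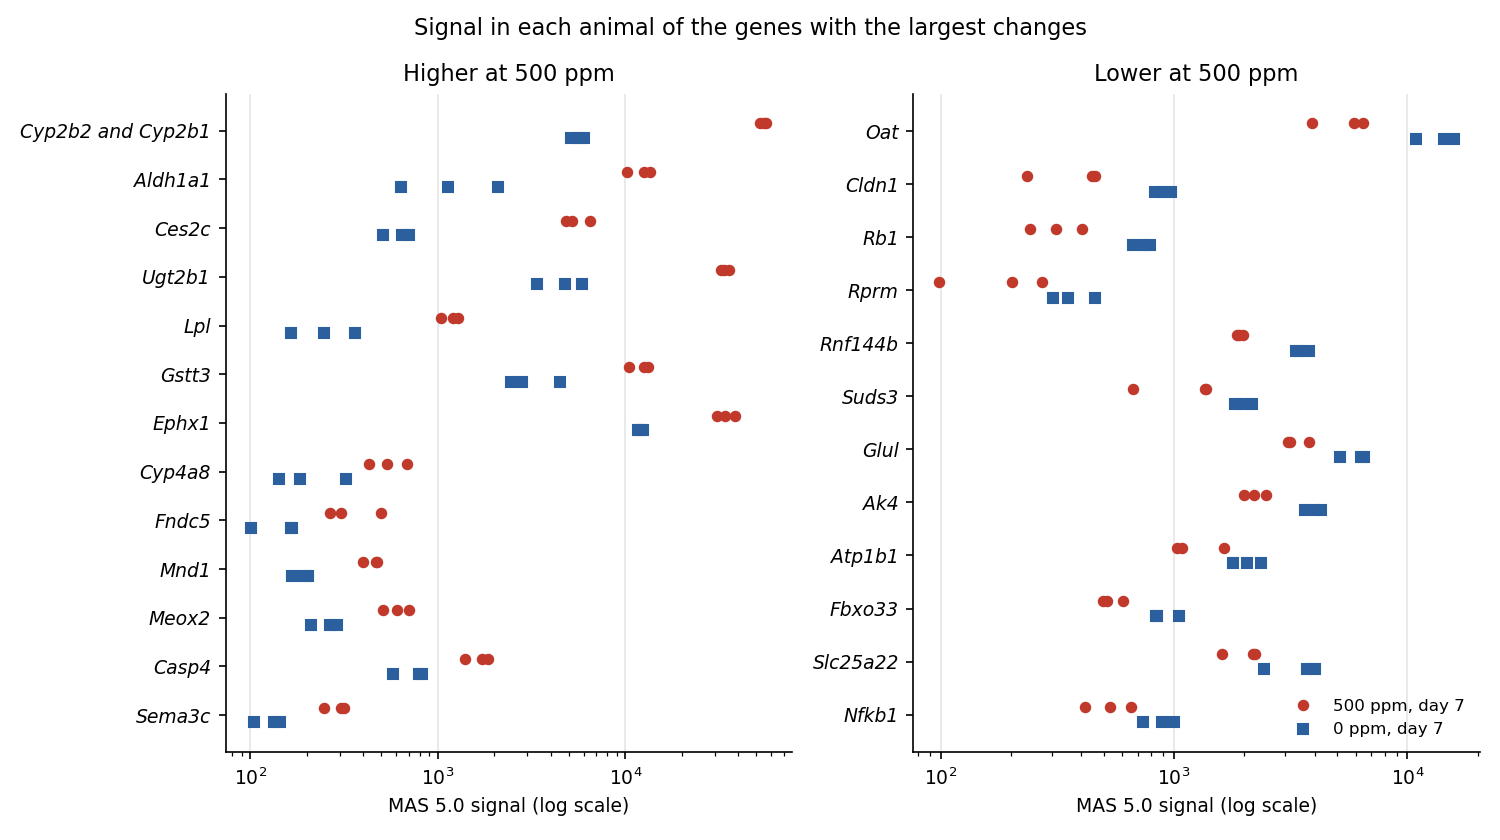
MAS 5.0 signal (x axis, log scale) of each animal for the probeset of Cyp2b2 and Cyp2b1, for the 12 genes with the largest rises (left) and for the 12 with the largest falls (right), with red circles for 500 ppm and blue squares for 0 ppm, both on day 7. The groups do not overlap in any row, which the rule for choosing these genes required, and the rises reach 3.39 on the log2 scale while the falls reach -1.35.

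Of the 33 gene lists examined, the one with the most called genes was that of oxidation. This list of oxidizing and hydrolysing enzymes induced through CAR and PXR held 18 tested genes, of which 9 rose and 1 fell, with a median of 0.74 against 0.006 over all probesets tested. Over all probesets 2.04% were called higher and 1.46% lower. In 11 of the 17 listed in all 6 animals the groups did not overlap upwards, and in 2 they did not overlap downwards. Over all probesets these shares were 10.7% and 11.4%. Besides Aldh1a1, Ces2c and Ephx1, the genes that rose were Cyp3a2 (1.04 ± 0.15) and Cyp3a23-3a1 (1.02 ± 0.12), the P450s induced through PXR, Cyp2c6v1 (0.76 ± 0.13), Nqo1, the quinone reductase (0.82 ± 0.19), and the electron donors of the P450s, Por and Cyb5a. Por, the P450 reductase, read 3830, 2893 and 3303 at 500 ppm and 1467, 1590 and 2240 at 0 ppm (0.94 ± 0.17, adjusted p = 0.00088). Cyb5a, cytochrome b5, read 38602, 35302 and 39896 at 500 ppm and 22395, 28066 and 24001 at 0 ppm (0.62 ± 0.10, adjusted p = 0.000334).

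Not every P450 of the list moved in this direction. Cyp1a2, which is controlled mainly through the aryl hydrocarbon receptor, read 12971, 12150 and 11942 at 500 ppm and 15535, 17642 and 15176 at 0 ppm, a fall of 0.38 ± 0.10 (adjusted p = 0.022). Cyp2b3, a member of the Cyp2b family that is not known as PB-inducible, read 32677, 28626 and 31072 at 500 ppm and 24984, 32293 and 26070 at 0 ppm (0.16 ± 0.12, adjusted p = 0.504). For Cyp3a9 the log2 fold change was 0.71 ± 0.22 (adjusted p = 0.0654) and the groups overlapped. With the run as a block 3 of the 18 genes rose and 0 fell, without animal 55 10 of 17 rose and 1 fell, and with the labels followed 9 of 18 rose and 0 fell.

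Of 23 tested genes of conjugation and transport 7 rose, 0 fell and 16 were not called, with a median of 0.28, and with the run as a block 1 rose. These counts stand beside 2.04% called higher and 1.46% called lower over all probesets. Most of the 7 were glutathione transferases. Besides Ugt2b1 and Gstt3 these were the transferases Gstm1 (0.74 ± 0.11), Gsta4 (0.61 ± 0.10), Gstm2 (0.59 ± 0.09), Gstm4 (0.59 ± 0.13) and Mgst2 (0.46 ± 0.09). Gstm1, of the mu class, read 44395, 40960 and 46691 at 500 ppm and 24678, 27529 and 26772 at 0 ppm. Probesets shared by several genes were not counted in the list. The one annotated to Gsta5 and Gsta2 rose by 1.23 ± 0.13 (adjusted p = 2.23e-08), and the one that covers the genes of the UGT1A cluster, which includes the bilirubin transferase, rose by 0.58 ± 0.11 (adjusted p = 0.00258). Of the transporters, Abcc2, which exports conjugates into bile, had 0.29 (adjusted p = 0.081).

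**Figure D3:**
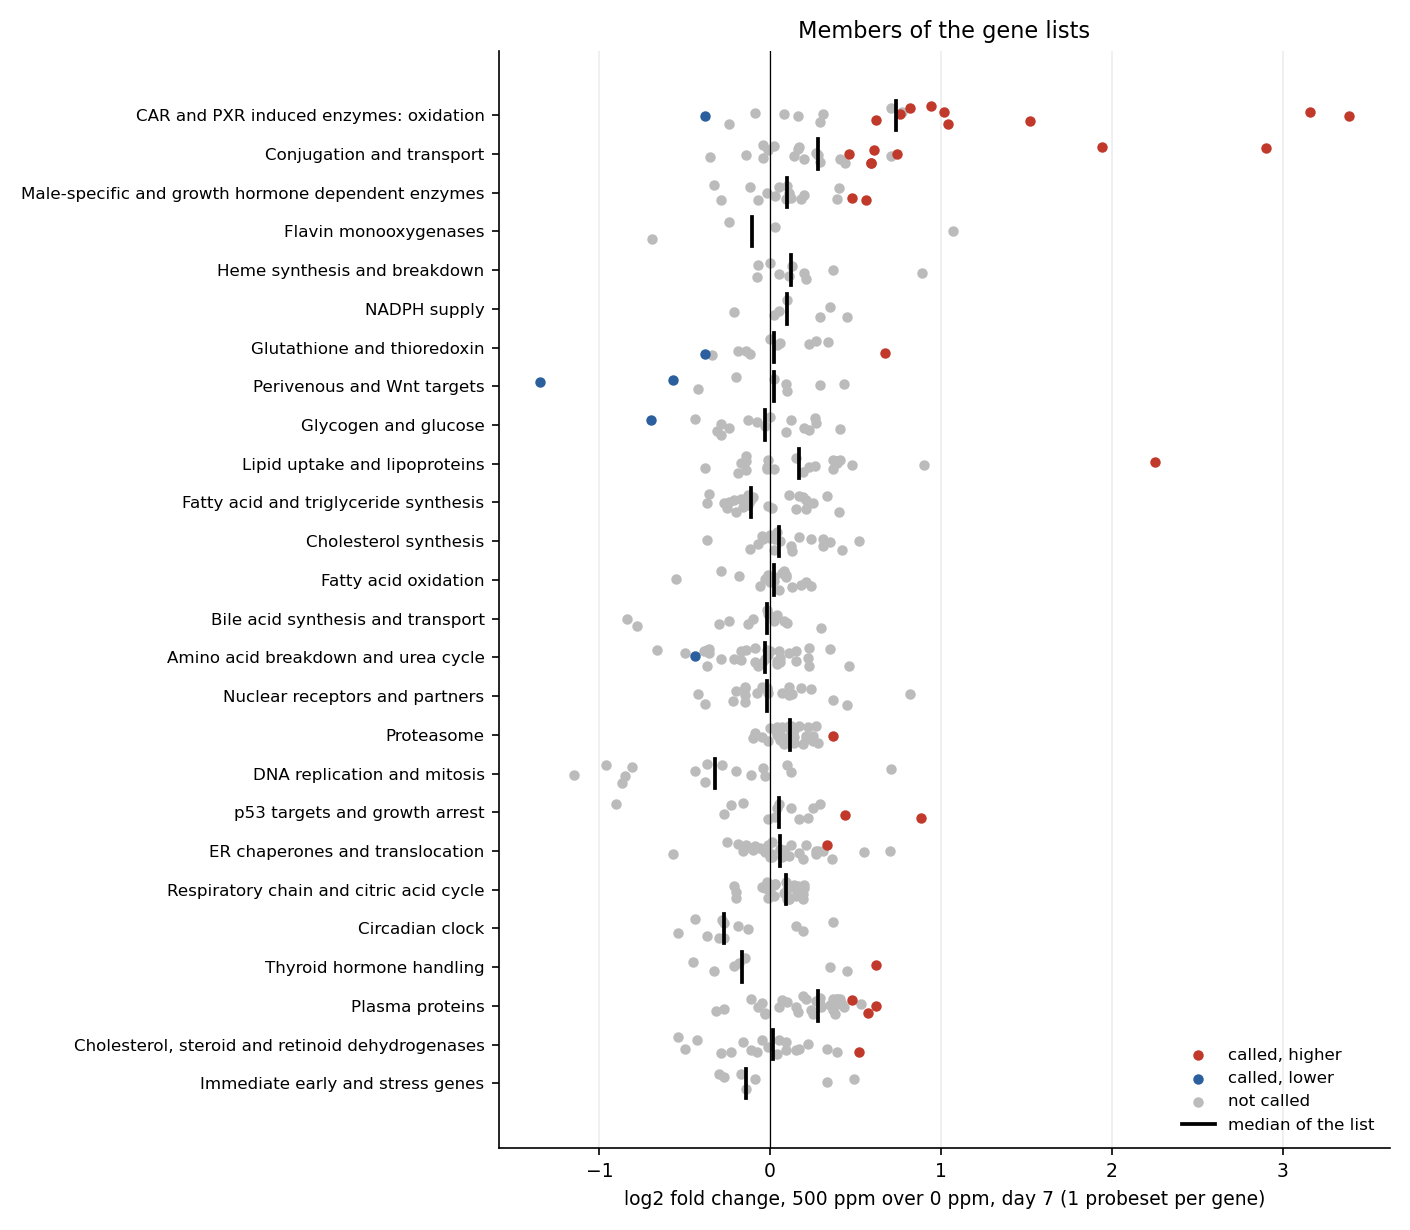
Log2 fold change of 500 ppm over 0 ppm on day 7 (x axis) for each tested gene of the 26 lists (rows), 1 probeset for each gene, with called rises red, called falls blue and the rest grey, and a black bar at the median of each list. The enzymes of oxidation have the highest median, 0.74, and DNA replication and mitosis the lowest, -0.33 with 0 genes called.

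The lists of processes that support drug oxidation are small, and their counts stand beside the 3.50% called over all probesets. Alas1, the first and limiting enzyme of heme synthesis, read 12338, 8868 and 16990 at 500 ppm and 5850, 7484 and 6678 at 0 ppm. The groups did not overlap, but the treated animals spread widely and the gene was not called (0.89 ± 0.31, adjusted p = 0.099). limma called 0 of 10 genes of heme synthesis and breakdown, with 3 at an unadjusted p under 0.05, and 0 of 7 genes of NADPH supply, also with 3. Of 12 genes of glutathione and thioredoxin, Gsr, which regenerates reduced glutathione, rose by 0.67 ± 0.14, and Glrx, glutaredoxin, fell by 0.38 ± 0.11. The receptors themselves were not called: Nr1i3 (CAR) read 981, 708 and 1036 at 500 ppm and 908, 1202 and 894 at 0 ppm, and Nr1i2 (PXR) had a log2 fold change of -0.15 ± 0.16. limma called 0 of 22 nuclear receptors and partners, with 3 at an unadjusted p under 0.05.

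In each list of lipid, carbohydrate and amino acid metabolism at most 1 gene was called, again beside 3.50% over all probesets, and the counts depended on the scaling. After quantile normalization 4 of 17 genes of glycogen and glucose, 12 of 35 of amino acid breakdown and the urea cycle, 3 of 13 of bile acids and 3 of 22 of lipid uptake were lower. These counts stand beside 1599 of 13290 probesets called lower in that setting, a larger share than the 3.50% above. On the signals as scaled by the authors, Lpl was the only call among 22 genes of lipid uptake and lipoproteins. limma called 0 of 25 genes of fatty acid and triglyceride synthesis, 0 of 20 of cholesterol synthesis, 0 of 19 of fatty acid oxidation and 0 of 13 of bile acid synthesis and transport, with 3, 3, 2 and 2 of them at an unadjusted p under 0.05. In the bile acid list Cyp8b1, the enzyme that sets the cholic acid share, read 5827, 3060 and 2504 at 500 ppm and 4142, 7420 and 7427 at 0 ppm, with overlapping groups (-0.78 ± 0.28, adjusted p = 0.108). Of 17 genes of glycogen and glucose metabolism Slc2a2, the glucose transporter GLUT2, fell by 0.70 ± 0.11 (adjusted p = 7.74e-05). It read 8982, 6488 and 7251 at 500 ppm and 11411, 11824 and 13532 at 0 ppm. Of 35 genes of amino acid breakdown and the urea cycle, Kmo, of the kynurenine pathway, fell by 0.44 ± 0.12.

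The perivenous list, genes that mark hepatocytes around the central vein, had 2 of 9 tested genes lower, Oat and Glul, and none higher. Its other members spread on both sides of 0, and the median was 0.02. Over all probesets 1.46% were called lower and 2.04% higher. Fmo1, a flavin monooxygenase, read 2373, 1774 and 2503 at 500 ppm and 3454, 4353 and 2931 at 0 ppm and was not called (-0.69 ± 0.23, adjusted p = 0.0932). It was the lowest of 4 tested flavin monooxygenases, whose fold changes reached 1.07 upwards, with a median of -0.10. Among 17 male-specific and growth hormone dependent enzymes, Cyp2c11 (0.56 ± 0.14) and Cyp2d2 (0.48 ± 0.12) were called higher. Both are bright, with signals of 24906 or more in all animals, and after quantile normalization they had 0.15 and 0.14 and were not called.

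Many genes of cell division had too few listed signals on day 7 to be tested. Of 34 genes of DNA replication and mitosis that were kept, 16 had enough listed values to be tested, and limma called 0, with 5 at an unadjusted p under 0.05. Their median was -0.33, against 0.006 over all probesets, and it was -0.18 with the run as a block and 0.14 with the labels followed. Ccnb2, a cyclin of mitosis, read 180, 210 and 253 at 500 ppm and 363, 434 and 446 at 0 ppm (-0.96 ± 0.38, adjusted p = 0.154). Cdk1, its kinase, read 218, 164 and 225 at 500 ppm and 400, 421 and 281 at 0 ppm (-0.85 ± 0.55, adjusted p = 0.424). Of 15 p53 targets, Mdm2, which degrades p53, rose by 0.44 ± 0.13, and Fas, the death receptor, rose by 0.88 ± 0.23. Single members were called higher among 36 proteasome genes (Psmd9, 0.37 ± 0.10), 35 genes of chaperones and translocation in the endoplasmic reticulum (Pdia3, 0.33 ± 0.09) and 20 dehydrogenases of cholesterol, steroids and retinoids (Cbr1, 0.52 ± 0.12). These counts and that of the p53 targets stand beside 2.04% called higher over all probesets. In these lists 0 genes were called higher after quantile normalization or with the run as a block. After quantile normalization 2 of the endoplasmic reticulum list were lower, beside 1599 of 13290 over all probesets. limma called 0 of 32 genes of the respiratory chain and citric acid cycle, 0 of 12 clock genes, 0 of 7 immediate early genes and 0 of 4 flavin monooxygenases, with 5, 0, 1 and 2 at an unadjusted p under 0.05.

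Of 34 plasma proteins made by hepatocytes that were tested, 3 were called higher, Ttr, a carrier of thyroid hormone and retinol (0.62 ± 0.17), Crp (0.57 ± 0.12) and Orm1 (0.48 ± 0.12), and the median was 0.28, with 21 at an unadjusted p under 0.05. After quantile normalization 1 was higher, 7 were lower and the median was -0.10, while it was 0.05 with the run as a block, 0.19 against the control arrays of runs 1 and 6 and 0.34 with animal 55 alone. Ttr was also the only call among 8 genes of thyroid hormone handling. Over all 13290 probesets tested 2.04% were called higher, and 2534 had an unadjusted p under 0.05 in limma. After quantile normalization 120 of all probesets were higher and 1599 lower.

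Markers of the cells a liver sample can hold were measured beside these changes. Their counts stand beside 3.50% called over all 13290 probesets tested, of which 2534 had an unadjusted p under 0.05 in limma. In whole liver, fewer cells of a type and less RNA per cell cannot be told apart. The signals of all kept markers of a list, tested or not, were summed for each animal. The brightest markers of a list thus weighed most, and an absent signal added nothing. The sums took in 12 markers of stellate cells and fibroblasts and 7 of lymphocytes and neutrophils, more than were tested. All 6 signals were listed for 7 of 9 tested markers of stellate cells and fibroblasts. This held for 1 of 3 of lymphocytes and neutrophils and 2 of 3 of red blood cells, and for every tested marker of the other lists. The sums of the incomplete lists can therefore also differ, or overlap, through which signals were listed. Hepatocyte markers were present in all animals, with summed signals of 281188 to 317073 at 500 ppm and 191940 to 295159 at 0 ppm, and Ttr was the 1 call among 7, with 5 at an unadjusted p under 0.05. Kupffer cell and macrophage markers summed to 31966 to 36941 at 500 ppm and 31823 to 35052 at 0 ppm, with 0 of 13 called and 2 at an unadjusted p under 0.05. The sums also overlapped for stellate cells and fibroblasts (10840 to 13922 and 12288 to 13593), endothelial cells (11333 to 13590 and 13000 to 13934), lymphocytes and neutrophils (622 to 1061 and 762 to 1272) and red blood cells (23293 to 32636 and 22080 to 30299), each with 500 ppm first and with 0 genes called in limma, of 9, 8, 3 and 3 tested, and 1, 0, 1 and 0 at an unadjusted p under 0.05. Markers of bile duct cells rested on Epcam and Krt19 alone, since Krt7, Spp1 and Sox9 had no probeset of their own that was kept, and they summed to 1017 to 1071 at 500 ppm and 511 to 720 at 0 ppm. Epcam, an adhesion protein of bile duct cells, read 894, 933 and 818 at 500 ppm and 401, 535 and 538 at 0 ppm (0.85 ± 0.20, adjusted p = 0.0123), while Krt19 had 0.41 (adjusted p = 0.421). The part of these cells in the other changes was not tested.

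Some genes were listed in one group only, and for these no fold can be given. At 500 ppm 16 probesets were listed in all 3 animals and in no control of day 7. The brightest with a single gene was Gstm3, a further mu class glutathione transferase, with signals of 1858, 1241 and 2151. It was listed on 0 of the 12 control arrays of the 4 days, on 9 of the 12 arrays at 500 ppm and on all 3 at 1000 ppm on day 7. Next came Cyth1 with 1351, 1231 and 1384, listed on 0 control arrays and on none at 1000 ppm on day 7, then Peli3, Nat8f3 and Baz1b at 444 or less, each of which was listed on 4 or 5 control arrays of other days. In the other direction 274 probesets were listed in all 3 controls and in no 500 ppm animal, the brightest being Ryk, Skic2, Commd7, Rlim and Trappc10, with signals of 509 to 809. As stated above, the arrays of run 1 list fewer probesets, and the part of the run in these 274 was not tested.

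The 1000 ppm livers of day 7 were compared with those at 500 ppm directly, to ask whether the higher dose gave another response. limma called 18 probesets (0.135% of 13299) higher and 14 (0.105%) lower at 500 ppm than at 1000 ppm, with 1945 at an unadjusted p under 0.05. None of the 55 named probesets was among them. The probeset of Cyp2b2 and Cyp2b1 read 54724, 52171 and 56298 at 500 ppm and 34326, 40482 and 39962 at 1000 ppm, without overlap, and the difference of 0.51 (95% confidence interval 0.23 to 0.80) was not called (adjusted p = 0.107). Lpl had a difference of -0.59 (-1.20 to 0.02), Aldh1a1 of -0.39 (-1.08 to 0.30), Ces2c of -0.39 (-0.81 to 0.03) and Glul of 0.36 (0.04 to 0.69) at the probeset above. None of the 4 passed the threshold (adjusted p from 0.285 to 0.634), which does not show that the doses act alike. Run 6 held 1 animal of each dose, and in it the probeset of Cyp2b2 and Cyp2b1 read 54724 in animal 55 and 34326 in animal 71.

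The called differences between these doses were in other genes, chosen here after their values were seen. Gtpbp6, a GTP-binding protein, was higher at 500 ppm by 0.96 ± 0.16 (adjusted p = 0.00809), with 692, 682 and 739 against 346, 365 and 373 at 1000 ppm. Igfbp4, which binds insulin-like growth factors, was higher by 0.50 ± 0.11 and Prkaca, the catalytic subunit of protein kinase A, by 0.45 ± 0.10. Neither followed the dose: the means at 0, 50, 500 and 1000 ppm were 3007, 4468, 4261 and 3014 for Igfbp4. For Prkaca they were 937, 1284, 1337 and 975. Acad9, an acyl-CoA dehydrogenase needed for complex I assembly, was lower at 500 ppm by 0.42 ± 0.09, with 1906, 1851 and 1952 against 2651, 2503 and 2504 at 1000 ppm. The adjusted p against 1000 ppm was 0.0411 for each of Igfbp4, Prkaca and Acad9. After quantile normalization 16 were higher and 1134 lower at 500 ppm, with each array centred on the median of its listed signals 60 and 2428, and centred on the probesets listed on all arrays 14 and 1. With animal 55 left out 73 probesets were called, and without animal 51 or 53, or with the labels followed, 0 were.

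The 50 ppm livers of day 7 were farther from those at 500 ppm. limma called 773 probesets (5.86% of 13196) higher and 451 (3.42%) lower at 500 ppm than at 50 ppm, and 642 to 1302 in all when 1 animal was left out. No run held both of these groups. With the labels followed 0 were called, with animal 55 then counted at 50 ppm. The majority turned with the scaling: 383 were higher and 1655 lower after quantile normalization, and 400 and 2318 with each array centred on the median of its listed signals.

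The genes differed in how far 50 ppm had moved them. The probeset of Cyp2b2 and Cyp2b1 read 5119 to 6024 at 0 ppm, 28616 to 31325 at 50 ppm and 52171 to 56298 at 500 ppm, and Ugt2b1 read 3389 to 5840, 16239 to 19361 and 32402 to 35836 at the same doses. Aldh1a1 read 635 to 2097 at 0 ppm, 1144 to 1905 at 50 ppm and 10200 to 13568 at 500 ppm, and Ces2c read 507 to 701, 540 to 876 and 4815 to 6472. The 50 ppm animals thus lay clear of the controls in the first pair of probesets and overlapped them in the second. The 500 ppm animals were above the 50 ppm animals by 0.85 ± 0.14 at Cyp2b2 and Cyp2b1, 0.95 ± 0.15 at Ugt2b1, 3.05 ± 0.34 at Aldh1a1 and 2.89 ± 0.21 at Ces2c. Some large differences came from low signals at 50 ppm. Ahr, the aryl hydrocarbon receptor, read 787, 582 and 716 at 500 ppm and 186, 163 and 146 at 50 ppm (2.07 ± 0.32, adjusted p = 9.88e-05), while it read 281, 443 and 479 at 0 ppm and 500 ppm against 0 ppm was not called (0.82 ± 0.32, adjusted p = 0.147). Ahr was chosen after its values were seen.

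**Figure D4:**
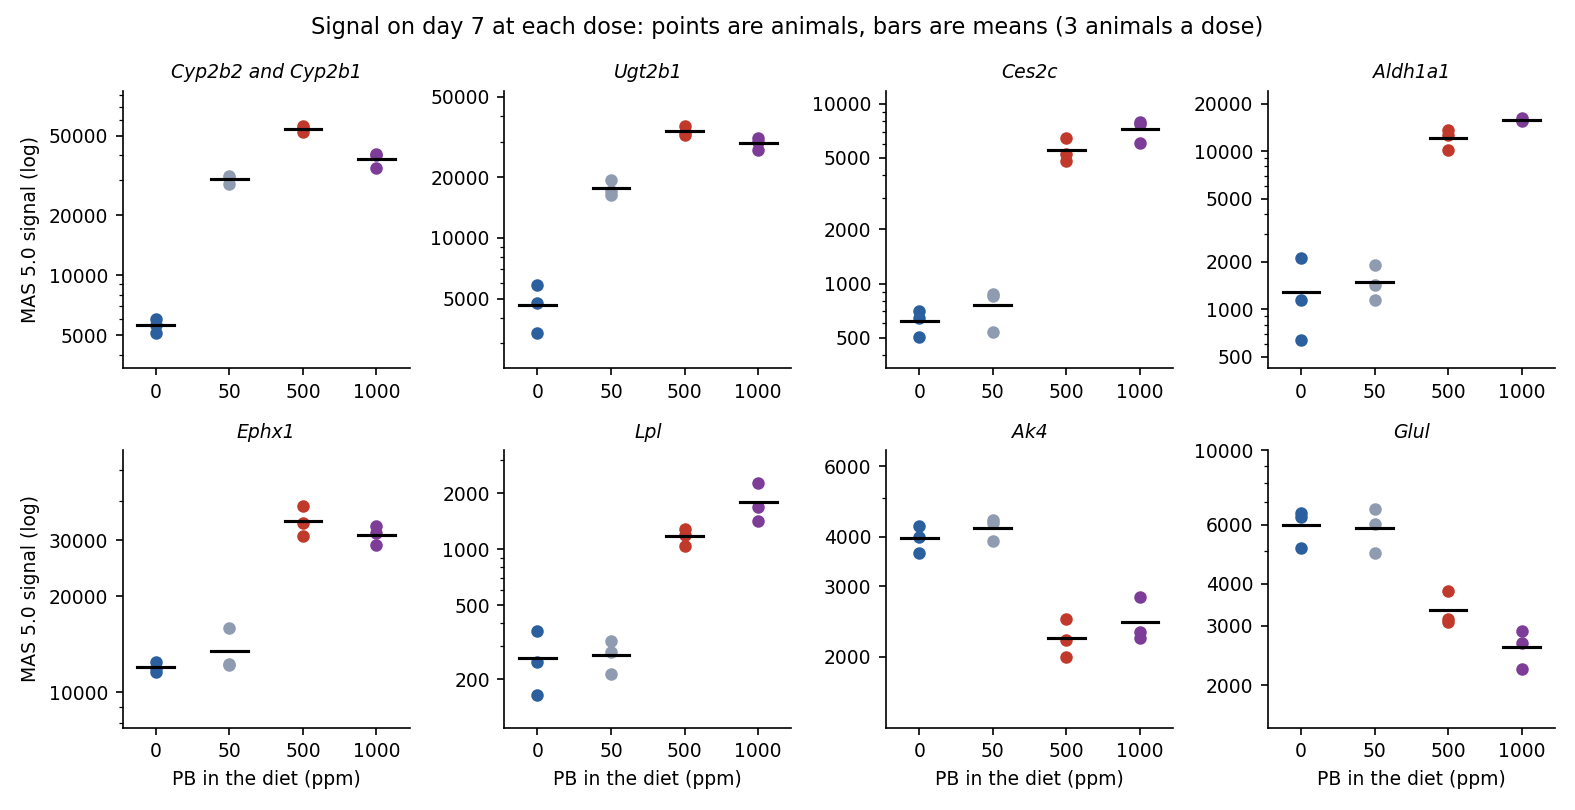
MAS 5.0 signal on day 7 (y axes, log scale) at 0, 50, 500 and 1000 ppm PB (x axes) for the probeset of Cyp2b2 and Cyp2b1 and for 7 genes, with a point for each animal and a bar at the mean of 3. The probeset of Cyp2b2 and Cyp2b1 and Ugt2b1 already lie above the controls at 50 ppm (28616 to 31325 for the first), while Ces2c, Aldh1a1, Ephx1 and Lpl overlap them at 50 ppm and lie above them at 500 ppm, and Ak4 and Glul lie lower at 500 and 1000 ppm.

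The response to 500 ppm on day 7 was then set against the mean response to the same dose on days 1, 3 and 14, each against its own controls. Of 12599 probesets tested, 17 (0.135%) had a higher response on day 7 and 10 (0.0794%) a lower one, with 1780 at an unadjusted p under 0.05, and 0 were called with the labels followed. After quantile normalization 17 were higher and 961 lower, with the listed medians as centre 27 and 1745, and with the probesets listed on all arrays as centre 20 and 6. Of the 55 named probesets 2 were among these 27, Suds3 and Slc2a2. App, Atp7b, Igfbp4 and Prkaca, outside the 55 because they were chosen after their values were seen, were among the 27 as well. Suds3 had log2 fold changes of -0.10, -0.05, -0.88 and -0.07 from the first day to the last, and the difference was -0.80 ± 0.18 (adjusted p = 0.0459). Slc2a2 had 0.02, -0.37, -0.70 and -0.14, with a difference of -0.54 ± 0.12 (adjusted p = 0.0467). The call was lost under 18 of 37 alternatives for Suds3 and under 22 of 37 for Slc2a2, and the sign stayed negative in all of them.

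Cyp2b2 and Cyp2b1, Ephx1 and Aldh1a1 had positive fold changes on each of the 4 days. The probeset of Cyp2b2 and Cyp2b1 had log2 fold changes of 2.80, 3.08, 3.28 and 3.07 on days 1, 3, 7 and 14, and Ephx1 had 1.06, 1.24, 1.52 and 1.73. Aldh1a1 had 1.36, 2.55, 3.39 and 4.57 and Lpl had -0.05, 0.71, 2.25 and 2.06. None of the 4 was called for day 7 against the mean of the other days, and for Lpl this difference was 1.34 (adjusted p = 0.0892). Among the called probesets, chosen after their values were seen, Atp7b, the copper-exporting ATPase, had -0.30, -0.15, 1.06 and 0.01 on the 4 days, with a difference of 1.20 (adjusted p = 0.00401). The App probeset that rose by 1.74 had 0.28, 1.07, 1.74 and 1.72, with a difference of 0.72 (adjusted p = 0.0338). The other App probesets were not called for this difference in limma (adjusted p = 0.399 and 0.524). Igfbp4 had -0.99, -0.38, 0.50 and 0.20, with a difference of 0.89 (adjusted p = 0.000433).

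**Figure D5:**
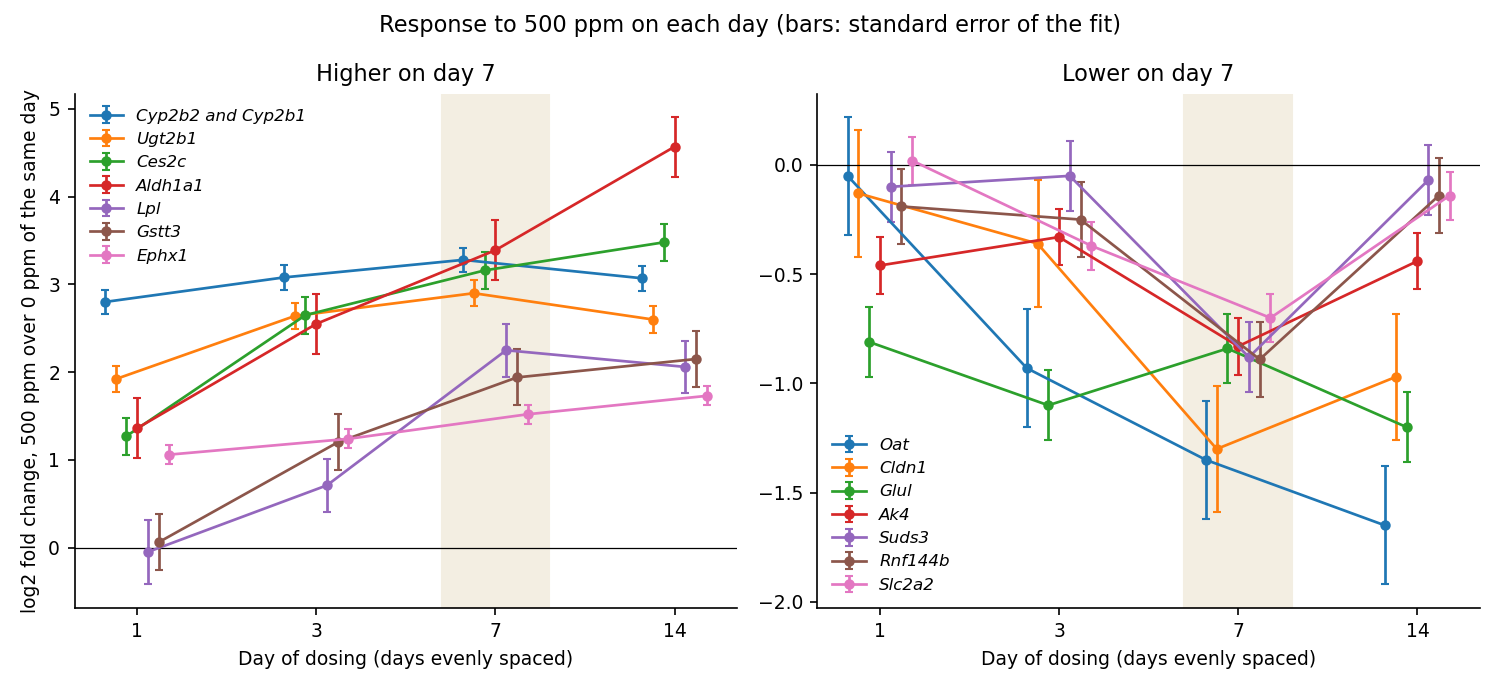
Log2 fold change of 500 ppm over 0 ppm of the same day (y axis) on days 1, 3, 7 and 14 (x axis, days evenly spaced), with standard errors of the fit as bars and 3 animals in each group, for genes higher (left) and lower (right) on day 7, which is shaded. Suds3 and Slc2a2 are lowest on day 7 (-0.88 and -0.70), while Aldh1a1 goes on to 4.57 on day 14.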

How the data were processed

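Liver RNA of 48 rats was hybridized to 1-colour arrays, 1 for each animal. The authors combined the probe intensities with MAS 5, 1 signal for a probeset, and set the mean of each array to 500, and these intensity values were used as deposited. A second deposited table holds the ratio of each signal to its median over the arrays for a selection of probesets, and was left out. The arrays have 31099 probesets. Without 57 controls, the platform annotation gave a single symbol to 20826, more than 1 to 436 and none to 9780, and 0 symbols were updated. Every array listed 10177 of the probesets, and 8547 appeared on no array. The floor of 0.01 followed the study's methods. The filter (3 or more arrays with signals of 90 or more) kept 18073. It used the study's limits of 90 and 3, but the methods word their filter otherwise, excluding genes under 90 in 3 or more samples. Present flags, on which the methods also filter, were not used.

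A least squares fit of log2 signals used all 48 arrays, a mean per group (16) and variances moderated with limma 3.58.1 (R 4.3.3). Absent values stayed missing, and the fit was tested on simulated data. A probeset was tested where each group listed at least 2 values. All p-values come from limma and were adjusted by Benjamini-Hochberg within a comparison at 0.05. The animals of a group were separate rats, and their number limits the precision. Figures were drawn with matplotlib 3.10.9.

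Named genes were the 12 largest rises and the 12 largest falls, 1 probeset for each gene with 1 symbol, among calls of at least 1.5-fold whose groups did not overlap, and the called members of 33 gene lists, each read from its brightest probeset. Genes and lists were chosen with earlier results of these data known, so they support nothing beyond their counts. No set test was run. Alternatives changed the scaling, the filter, the pseudocount, absent values, run, replicate block, arrays fitted, placing of conflicting arrays, controls and each array in turn. Replicate numbers in the labels do not pair animals, since each rat gave 1 array.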

Additional observations from a re-analysis of the deposited data

Results flagged for a closer look

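Of the named probesets, 2 had a response to 500 ppm on day 7 that differed from the mean response on days 1, 3 and 14 by the test of that difference. Genes chosen after their values were seen are not among the named probesets, and of these App, Atp7b, Igfbp4 and Prkaca were also called. For Suds3 the difference was -0.80 ± 0.18 on the log2 scale (adjusted p = 0.0459), with animal 53 at 668 below the other treated animals at 1358 and 1368. For Slc2a2 it was -0.54 ± 0.12 (adjusted p = 0.0467). Suds3 had been chosen for a fall on day 7 without overlap, and Slc2a2 as a called member of a gene list. Both adjusted p-values lie close to the threshold of 0.05, and neither gene was called for this difference when the labels were followed (adjusted p = 0.501 and 0.303), when the run was a fixed term (0.979 and 0.906), or without animal 11 (0.164 and 0.101), 15 (0.111 and 0.185) or 53 (0.223 and 0.141), each with Suds3 first. Of 37 alternatives, 18 lost the call of Suds3 and 22 that of Slc2a2, with adjusted p of 0.00264 to 0.979 and 0.00254 to 0.906.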

How the results depend on the processing

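Quantile normalization called 1719 probesets for 500 ppm against 0 ppm (465 as reported), 1150 against 1000 ppm (32), 2038 against 50 ppm (1224) and 978 for day 7 minus the other days (27). Centring on the listed median called 2409, 2488, 2718 and 1772. Centring on common probesets called 15 against 1000 ppm. With the run as a fixed block 12, 0, 7 and 3 were called, and as a random block 43 for day 7 minus the other days. Only the arrays of the groups compared gave 7, 0, 6 and 5. The labels' groups gave 129, 0, 0 and 0, and without the 7 arrays in conflict 82 were called against 1000 ppm, while 500 against 50 ppm gave no value. All 12 controls gave 868, the controls of runs 1 and 6 gave 20, and animal 55 alone, added after the data had been seen, gave 42. Leaving out 1 array gave 149 to 554, 0 to 73, 642 to 1302 and 5 to 102. Against 50 ppm the count was 734 without animal 31, 694 without 35, 726 without 51 and 642 without 53. Against 1000 ppm it was 2 without animal 71, 0 without 73 and 15 without 75. For day 7 minus the other days it was 102 without animal 13, 5 without 11 or 53, 8 without 15, 55 without animal 55, 15 without the first control of day 3 and 14 without the third control of day 14. The day 7 controls against the other controls gave 0 under each array left out.

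The replicate block gave 495 for 500 ppm against 0 ppm. Deviations of same-numbered animals correlated at -0.213, -0.0829 and 0.0237, so the samples share only a number. Of 1209 values of the 55 named probesets under the alternatives, 889 kept their side of the threshold, 320 lost the call and 0 changed sign. The cause of the lost calls was not tested. With the run as a fixed block 49 of the named probesets lost the call and 5 kept it, and that fit multiplied the variance of the comparison by 3.6. Fits with fewer arrays or with the run as a term also have fewer degrees of freedom. The low signal of many probesets limits what 3 arrays a group can show.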
